A study of Rattus norvegicus with 15 samples.

Results

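The comparison described here sets the femurs of ovariectomised rats that received both plant extracts against the femurs of sham-operated rats, and covers 6 of the 15 RNA-sequencing libraries of the study. Its members were chosen by title, as the 3 libraries named PJ and the 3 named Sham. The rats were female Sprague-Dawley (SD) animals, 8 weeks old at the start. Sham rats had fat removed beside the ovaries and were given saline. PJ rats lost both ovaries and, after 6 weeks of recovery, received by gavage 4 g per kg of a combined extract of Juglans regia (walnut) and Psoralea corylifolia each day for 8 weeks. Penicillin and erythromycin ointment were given after either operation. For reference, the text also gives the OVX group (both ovaries removed, saline), and in a few places the J and P groups (ovariectomy with the walnut extract at 1.6 or the Psoralea extract at 2.4 g per kg per day), with 3 libraries each. The labels name neither the region of the femur taken nor whether marrow and joint ends were kept. They also do not tie libraries to individual rats, and p-values therefore reflect library-to-library spread, which may be technical.

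A femur holds mineralised bone with osteoblasts, osteocytes and osteoclasts, a marrow in which red cells, platelets, granulocytes and B cells are formed, marrow fat, and at its ends cartilage and synovium. Ovaries are the main source of estrogen, and estrogen loss is known for raising bone resorption by osteoclasts and for expanding early B-cell development in marrow. Osteoclasts form under RANKL (gene Tnfsf11), which binds RANK (Tnfrsf11a), and osteoprotegerin (Tnfrsf11b) blocks RANKL as a decoy receptor. The question was what remained different from Sham under both extracts, and what lay beyond Sham.

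Libraries of the 6 held 34344000 to 61014000 reads (to the nearest 1000), as recovered from the deposited values, with 19458 to 20845 genes above 0 and 11.6% to 24.4% of FPKM (fragments scaled by gene length and library size) in mitochondrial genes. That share was 24.4%, 22.9% and 14.5% in Sham 1 to 3 and 11.6%, 15.7% and 17.3% in PJ 1 to 3, and 1627 genes were called with mitochondrial and globin genes removed before scaling, against 1693 with them. The libraries of a group were not alike. Sham 3 correlated across genes at 0.90 with Sham 1 and 0.94 with Sham 2, but at 0.94 and 0.95 with PJ 1 and PJ 2. PJ 3 correlated at 0.90 and 0.89 with PJ 1 and PJ 2, which correlated at 0.97 with each other. Sham 3 carried bone genes at the level of PJ 1 and PJ 2, while Sham 1 and Sham 2 did not: the summed FPKM of 17 osteoclast genes was 187, 178 and 2570 in Sham 1 to 3. PJ 3 was low in skeletal tissue genes: 20 cartilage genes summed to 1022, 1569 and 16.2 FPKM in PJ 1 to 3. Counts without these libraries are given beside the main lists. P 2, which enters PJ against Sham only through the shared estimate of spread, also stood apart: it correlated at 0.85 and 0.84 with P 1 and P 3, which correlated at 0.96. With Sham 1 to 3, P 2 correlated at 0.90, 0.88 and 0.87. The 20 cartilage genes summed to 123, 3901 and 159 FPKM in P 1 to 3, and 14 joint surface and tendon genes to 283, 4250 and 395. Why P 2 stood apart was not tested.

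Expression was compared as log2(FPKM + 1) in the 14509 genes whose mean FPKM over the 6 libraries reached 1. A gene is called higher or lower where its adjusted p in a limma fit of all 15 libraries (Benjamini-Hochberg over the 14509 genes) is under 0.05, and the count in a fit of the 6 libraries alone is given beside it. Differences are log2 values with the standard error (SE) of the fit. In PJ, 1115 genes were called higher than in Sham (7.68% of those tested) and 578 lower (3.98%), 11.7% in all, against 378 higher (2.61%) and 122 lower (0.841%) in the fit of 6 libraries. Without P 2, 1861 genes were called higher and 908 lower. The median log2 difference of all tested genes was 0.17. Scaling by median ratios moved that median to -0.01 and the calls to 803 higher and 921 lower, so the balance of higher to lower genes depended on the scaling. PJ libraries lay wholly above the Sham libraries in 3761 genes (25.9%) and wholly below them in 1595 (11%). Since RNA of a whole tissue was measured, fewer cells of a type and less RNA per cell cannot be told apart in any of the results. FPKM is also scaled to each library, so a larger share of one tissue lowers the values of the others. In Sham 1 to 3, 14 joint surface and tendon genes summed to 12080, 10922 and 6399 FPKM. The sums of 23 neutrophil genes were 402, 328 and 977. In PJ 1 to 3 the sums were 1287, 1372 and 71.5, and 4881, 2977 and 11228. How far the marrow and joint differences depend on each other was not tested.

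Among the gene lists, those of neutrophils, early B cells and cell division had the most members higher in PJ, and lists of matrix, joint, smooth muscle and hypoxia genes had members lower. Of all called genes, 1551 were also called in OVX against Sham with the same sign (1000 higher, 551 lower). In 877 of those higher genes and 517 of the lower ones OVX lay farther from Sham than PJ did. OVX was called on the opposite side of Sham in 7 called genes, and was not called in 135. These comparisons share the Sham libraries, so the counts describe where OVX lay and are no test of agreement. In OVX against Sham itself, 23.6% of genes were called higher and 30.2% lower, 53.9% in all. In PJ against OVX, 30.8% were called higher and 13.3% lower, 44.2% in all.

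**Figure D1:**
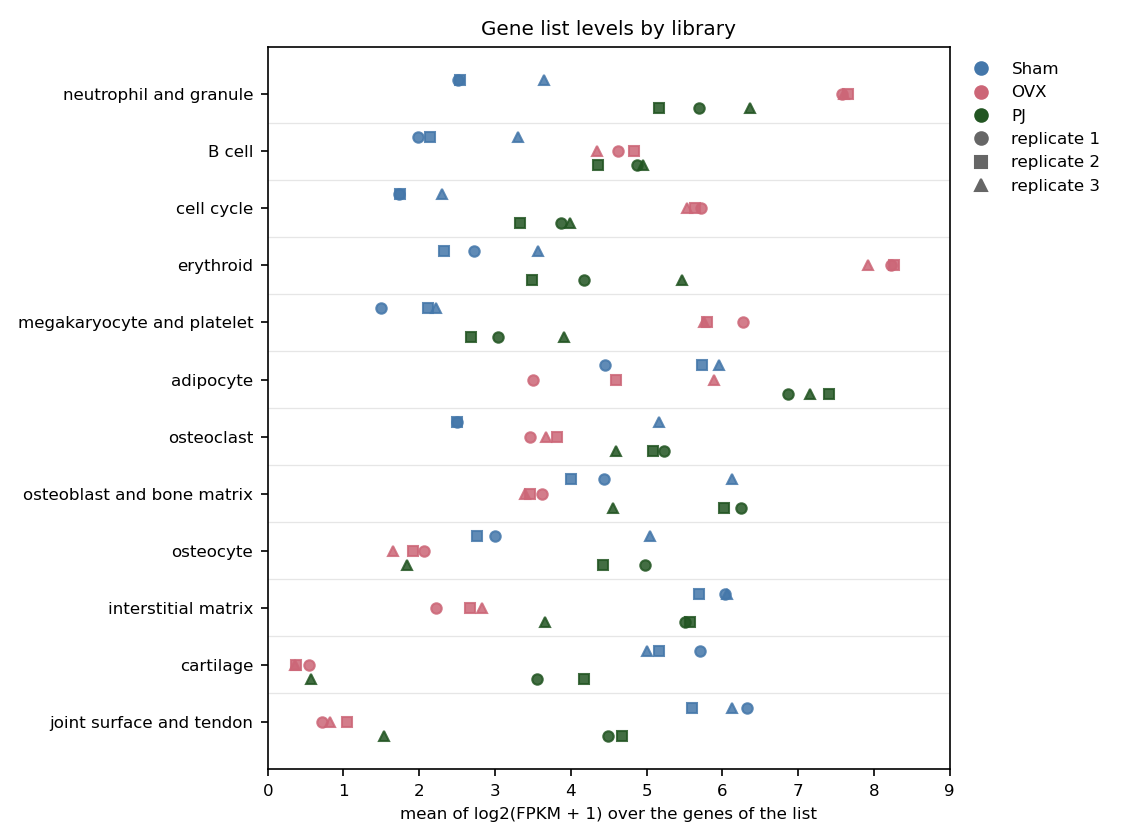
Mean of log2(FPKM + 1) over the genes of 12 lists (x axis) in each Sham, OVX and PJ library, with 1 symbol per library and the symbol shape giving the replicate. PJ libraries lay between Sham and OVX in the neutrophil and cell cycle lists, and in the erythroid list apart from PJ 2, which was just below Sham 3. Sham 3 lay above Sham 1 and Sham 2 in the osteoclast, osteoblast and osteocyte lists, and PJ 3 lay below PJ 1 and PJ 2 in these and in the matrix, cartilage and joint lists.

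Granulocyte genes showed the largest rises. Of 21 tested neutrophil and granule genes, 19 were higher in PJ (11 in the fit of 6 libraries, none lower), with a median log2 difference of 2.80 over the list. The PJ libraries of 19 of the 21 lay wholly above Sham. Defa5 (ENSRNOG00000030093), an alpha-defensin of neutrophil granules, had 2.46, 2.84 and 7.11 FPKM in Sham 1 to 3 and 316, 219 and 336 in PJ 1 to 3. The groups were far apart, with a log2 difference of 5.91 (SE 0.67, adjusted p = 0.00034), and OVX stood higher still at 1717 to 2391 FPKM. Its relatives Np4 and RatNP-3b differed by 5.89 (SE 0.65) and 5.97 (SE 0.73). A further defensin, Defa11, was listed at 0 in each Sham library and had 10.1, 12.1 and 13.8 FPKM in PJ. These defensins are near-identical copies, so how reads were divided among them is uncertain.

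Mmp8 (ENSRNOG00000009907), the collagenase of neutrophil granules, had 10.7, 13.2 and 11.8 FPKM in Sham and 113, 77.8 and 220.0 in PJ, a log2 difference of 3.29 (SE 0.35, adjusted p = 0.00028). PJ 3 was the highest of the PJ libraries and Sham was tight. S100a9, a subunit of the neutrophil protein calprotectin, had 106, 86.1 and 227 FPKM in Sham and 1215, 659 and 3003 in PJ (3.39, SE 0.53, adjusted p = 0.003), and its partner S100a8 rose alike (3.31, SE 0.54). Again PJ 3 was highest and PJ 2 lowest. Mpo and Elane, the peroxidase and elastase of primary granules, rose by 3.13 (SE 0.55) and 2.80 (SE 0.58). Cxcr4 (ENSRNOG00000003866), the CXCL12 receptor that holds granulocytes and progenitors in marrow, was among the most uniform changes, at 14.6, 19.0 and 18.3 FPKM in Sham against 93.9, 62.4 and 104 in PJ (2.24, SE 0.18, adjusted p = 0.00021). Its ligand Cxcl12 had 137, 373 and 783 FPKM in Sham against 681, 759.8 and 721 in PJ, and the groups overlapped (1.07, SE 0.58, adjusted p = 0.22). The eosinophil granule gene Prg2 was 8.72, 0.479 and 4.29 FPKM in Sham and 244, 103 and 49.3 in PJ (4.68, SE 0.95, adjusted p = 0.011).

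Leaving out 1 library at a time kept Defa5, Np4, RatNP-3b, Defa11, Mmp8, S100a8, S100a9, Mpo and Cxcr4 called in each of the 6 fits, with adjusted p of at most 0.031. Mpo was not called in the fit of the 6 libraries alone (adjusted p = 0.051). Elane lost its call without PJ 3 (adjusted p = 0.057) and Prg2 without Sham 2 (0.054). The number of neutrophil genes called higher was 12 without PJ 3, 13 without Sham 2 and 14 without Sham 1.

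Early B-cell genes made up the second marrow group. Of 21 tested B-cell genes, 15 were higher in PJ (8 in the fit of 6 libraries, none lower), the list median was 2.48, and PJ lay wholly above Sham in 19. Igll1 (ENSRNOG00000025990) encodes the lambda 5 chain of the surrogate light chain, by which pre-B cells test their heavy chain. Its values were 0.172, 0.580 and 2.47 FPKM in Sham and 48.4, 35.2 and 32 in PJ, a log2 difference of 4.39 (SE 0.65, adjusted p = 0.002). Vpreb1, the other chain of the same complex, had 0, 0.474 and 1.91 FPKM in Sham and 18.5, 17.3 and 22.6 in PJ (3.65, SE 0.62, adjusted p = 0.005). In both genes Sham 3 was the highest Sham library, and both were named partly because PJ and Sham did not overlap.

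The recombination genes behaved alike. Dntt, the terminal transferase of V(D)J joining, was 0.259, 0.967 and 2.7 FPKM in Sham and 26.9, 17.6 and 18.7 in PJ (3.38, SE 0.57, adjusted p = 0.0047), and the recombinase gene Rag1 differed by 2.98 (SE 0.61, adjusted p = 0.012). Pax5, the regulator that fixes B-cell identity, had 3.58, 2.12 and 6.90 FPKM in Sham and 27.1, 14.3 and 48.5 in PJ (2.52, SE 0.40, adjusted p = 0.0033). Among later markers, Cd79a rose by 2.50 (SE 0.63), whereas Ms4a1, Cr2, Fcer2, Bank1, Cd22 and Cd24 did not pass. Over the B-cell list the median difference was 2.38 in OVX against Sham and 0.01 in PJ against OVX, in which 1 of 21 members was called (Ebf1, 0.91). Ebf1, a factor that starts the B-cell programme, had 18, 20.9 and 25.4 FPKM in Sham, 45.7, 39.1 and 36.1 in PJ and 18.8 to 23.1 in OVX. It was called in PJ against Sham (0.89, SE 0.22, adjusted p = 0.026) but not in OVX against Sham. Calls of Igll1, Vpreb1, Dntt and Pax5 held in each fit that left out 1 library (adjusted p of at most 0.03). Pax5 was not called in the fit of the 6 libraries alone (adjusted p = 0.052). Rag1 lost its call without Sham 1 (adjusted p = 0.058) or Sham 2, and Ebf1 and Cd79a lost theirs without Sham 1 (0.12 and 0.13), Sham 2, PJ 1 or PJ 3. The list count was 5 without Sham 1 or Sham 2, 8 without PJ 1 and 6 without PJ 3.

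The Igll1 promoter is shown because EBF1 is known to drive the surrogate light chain genes, with the EBF motif searched, CCCNNGGG, in capitals (RefSeq, build GRCr8, chr11:97642937-97643236, plus strand, 250 bases before to 50 after the start).
Igll1: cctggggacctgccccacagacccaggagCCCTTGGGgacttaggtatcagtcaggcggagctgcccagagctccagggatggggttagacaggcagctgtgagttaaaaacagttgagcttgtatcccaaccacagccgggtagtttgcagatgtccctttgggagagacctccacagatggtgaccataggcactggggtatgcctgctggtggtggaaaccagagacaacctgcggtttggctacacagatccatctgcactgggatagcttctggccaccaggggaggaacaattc
This palindromic motif, which reads the same on both strands, occurred in 4 of the 12 B-cell promoters found in the table and in 12.7% of all 27457 promoters of the same length. A match in such a window is a description of letters and not a binding site.

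Cell division genes were the most uniform group. Of 26 tested cell cycle genes, 25 were called higher in PJ (17 in the fit of 6 libraries), all but Ccne2, and the PJ libraries lay wholly above Sham in all 26. The list median was 1.82 in PJ against Sham, against 3.82 in OVX against Sham and -1.89 in PJ against OVX, where all 26 were called lower. Mki67 (ENSRNOG00000028137), the marker of cycling cells, had 1.5, 1.46 and 3.38 FPKM in Sham and 23.8, 15.0 and 28.2 in PJ, with OVX at 108 to 155 (2.91, SE 0.25, adjusted p = 0.00021). PJ thus lay between the 2 saline groups, apart from each. Top2a, the topoisomerase that untangles replicated DNA, had 1.85, 1.96 and 4.40 FPKM in Sham and 36.1, 22.5 and 27.7 in PJ (3.03, SE 0.29). Cdk1 and Ccnb1, the kinase and the cyclin that start mitosis, differed by 2.37 (SE 0.26) and 2.05 (SE 0.23). The smallest called difference of the list was that of the replication clamp Pcna, at 38.2, 42.2 and 51.2 FPKM in Sham and 88.8, 69.1 and 66.3 in PJ (0.75, SE 0.18, adjusted p = 0.021). Leaving out 1 library at a time left 22 to 25 members called. Mki67, Top2a, Cdk1 and Ccnb1 kept adjusted p of at most 0.003, while Pcna lost its call without Sham 1 (adjusted p = 0.10), Sham 2 or PJ 1.

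The promoters of these 4 genes are shown because members of the list moved together, and the CCAAT box is a known element of mitotic gene promoters. Capitals mark CCAAT on either strand (ATTGG on the strand printed), in RefSeq windows of build GRCr8 from 250 bases before to 50 after the start. They lie at chr1:199952544-199952843, minus strand (Mki67), chr10:84473044-84473343, minus strand (Top2a), chr20:19265043-19265342, plus strand (Cdk1), and chr2:33655176-33655475, minus strand (Ccnb1).
Mki67: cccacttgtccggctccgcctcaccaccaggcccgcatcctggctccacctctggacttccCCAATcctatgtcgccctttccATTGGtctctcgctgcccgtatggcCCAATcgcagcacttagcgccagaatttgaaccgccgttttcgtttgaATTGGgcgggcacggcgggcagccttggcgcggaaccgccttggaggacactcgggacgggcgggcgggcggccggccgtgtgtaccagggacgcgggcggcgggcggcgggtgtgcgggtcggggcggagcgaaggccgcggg
Top2a: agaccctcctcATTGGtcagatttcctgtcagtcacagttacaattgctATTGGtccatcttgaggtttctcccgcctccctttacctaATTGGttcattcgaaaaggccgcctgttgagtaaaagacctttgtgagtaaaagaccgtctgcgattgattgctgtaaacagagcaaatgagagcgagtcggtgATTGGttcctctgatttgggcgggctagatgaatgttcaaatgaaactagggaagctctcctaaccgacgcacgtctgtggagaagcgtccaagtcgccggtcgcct
Cdk1: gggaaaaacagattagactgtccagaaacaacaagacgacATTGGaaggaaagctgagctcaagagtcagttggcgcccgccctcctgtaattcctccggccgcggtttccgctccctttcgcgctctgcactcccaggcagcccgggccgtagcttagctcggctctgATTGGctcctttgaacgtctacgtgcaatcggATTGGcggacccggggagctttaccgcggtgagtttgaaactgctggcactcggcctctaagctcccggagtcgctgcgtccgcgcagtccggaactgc
Ccnb1: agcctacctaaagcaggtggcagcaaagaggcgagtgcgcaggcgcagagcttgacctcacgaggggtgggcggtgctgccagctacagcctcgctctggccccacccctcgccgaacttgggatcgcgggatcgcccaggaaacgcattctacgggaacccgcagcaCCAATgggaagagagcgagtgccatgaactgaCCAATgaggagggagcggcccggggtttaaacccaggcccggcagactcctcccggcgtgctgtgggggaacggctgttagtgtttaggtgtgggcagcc
Mki67 and Top2a held 4 matches each, Cdk1 3 and Ccnb1 2. A CCAAT match on either strand was found in 14 of the 20 cell cycle promoters in the table and in 37.7% of all 27457. TTTGAA, the core of the cell cycle homology region, was found in 9 of the 20 and in 18.1% of all.

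About as many red cell genes passed as did not, most platelet genes passed, and both lists lay far below OVX. Of 25 tested erythroid genes, 12 were higher and none lower, with a list median of 1.52. The fit of 6 libraries called 1. PJ lay wholly above Sham in 12. Slc4a1 (ENSRNOG00000020951), the band 3 anion exchanger of the red cell membrane, had 5.66, 3.43 and 11.7 FPKM in Sham, 30.9, 14.6 and 102 in PJ and 686 to 892 in OVX (2.36, SE 0.57, adjusted p = 0.023). PJ 3 was highest and the 2 groups nearly met between Sham 3 and PJ 2. The alpha globin Hba-a1 had 709.6, 307 and 1946 FPKM in Sham and 1336, 1081 and 4836 in PJ, and the groups overlapped (1.35, SE 0.68, adjusted p = 0.19). In PJ against OVX all 25 erythroid genes were lower. No erythroid gene remained called without Sham 1, without Sham 2 or without PJ 3, and 5 remained without PJ 1.

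Of 17 megakaryocyte and platelet genes, 12 were higher and 1 lower (none in the fit of 6 libraries), with a median of 1.38 and PJ wholly above Sham in 15. The platelet chemokine Ppbp had 0.346, 6.96 and 10.4 FPKM in Sham and 41.3, 25.9 and 63.9 in PJ (3.08, SE 0.64, adjusted p = 0.013). Pf4, platelet factor 4, had 43.1, 43.4 and 65.8 FPKM in Sham and 110.1, 91.8 and 308 in PJ (1.53, SE 0.43, adjusted p = 0.038). Without Sham 1, Sham 2 or PJ 3 the list count was 1, 6 or 2. Ppbp lost its call without PJ 3 (adjusted p = 0.067) and Pf4 without Sham 1 (0.14), Sham 2 or PJ 3. Among other blood and immune lists, 3 of 16 T and NK cell genes were higher (Cd5, Nkg7 and Il7r), 1 of 8 plasma cell genes (Irf4), and 2 of 11 mast cell, basophil and eosinophil genes (Prg2 and Ms4a2). No T and NK cell or plasma cell gene was called without Sham 1, Sham 2 or PJ 3, and Irf4 remained in 1 of the 6 fits without 1 library. Ms4a2 was lost without Sham 1, Sham 2 or PJ 3 (at most 0.069). None of 8 MHC class II genes passed, with a median of 1.07.

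**Figure D2:**
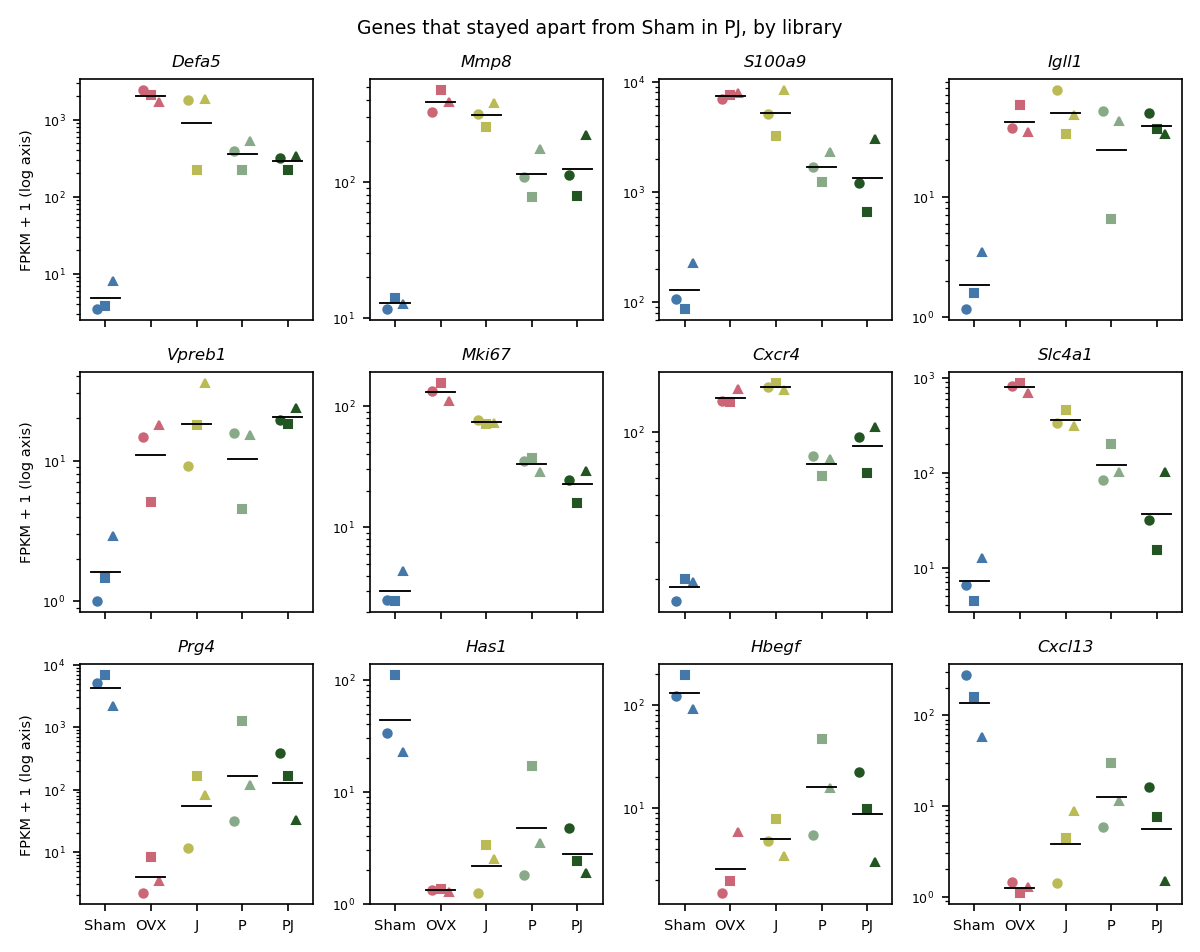
FPKM + 1 on log axes for 12 genes in each of the 15 libraries, grouped as Sham, OVX, J, P and PJ, with horizontal bars at the mean of the log values. The upper 8 genes lay above Sham in each PJ library and the lower 4 (Prg4, Has1, Hbegf and Cxcl13) lay below Sham in each.

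Genes of the joint lining and cartilage were the lowest in PJ relative to Sham. Of 13 tested joint surface and tendon genes, 3 were lower (1 in the fit of 6 libraries, none higher) with a list median of -2.63, and PJ lay wholly below Sham in 9. Prg4 (ENSRNOG00000002385) encodes lubricin, the lubricant made by synovial cells and surface cartilage. It had 5179.9, 6926 and 2207 FPKM in Sham and 382, 161 and 31.7 in PJ, with OVX at 1.15 to 7.36 (-5.08, SE 1.31, adjusted p = 0.029). The 3 groups did not overlap, and PJ 3 was the lowest PJ library. Has1, a hyaluronan synthase, had 32.3, 110.0 and 21.7 FPKM in Sham and 3.77, 1.42 and 0.897 in PJ (-3.97, SE 0.75, adjusted p = 0.0079). Hbegf, a growth factor of the EGF family, had 122, 197 and 91.2 FPKM in Sham and 21.3, 8.88 and 2.02 in PJ (-3.91, SE 0.82, adjusted p = 0.013). The B-cell-attracting chemokine Cxcl13 had 279, 157 and 57.0 FPKM in Sham and 15.3, 6.51 and 0.473 in PJ (-4.60, SE 0.90, adjusted p = 0.0097). In each of these genes the OVX libraries were at or below the PJ range, with 1 OVX library within it for Hbegf.

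Of 15 cartilage genes, 2 were lower (1 in the fit of 6 libraries) with a list median of -3.76, and PJ lay wholly below Sham in 13. Sox9, the regulator of chondrocyte identity, had 23.4, 10.0 and 10.2 FPKM in Sham and 1.65, 3.96 and 1.13 in PJ (-2.25, SE 0.52, adjusted p = 0.02). Col9a2, a cartilage collagen, differed by -2.47 (SE 0.56, adjusted p = 0.018). Acan, the aggrecan of cartilage, had 559.7, 259 and 200.1 FPKM in Sham and 41.7, 51.6 and 0.0114 in PJ, which the spread among PJ libraries left short of the threshold (-4.55, SE 1.67, adjusted p = 0.09). The summed FPKM of the cartilage list was 5179 to 9198 in Sham, 16.2 to 1569 in PJ and 6.96 to 20.5 in OVX. The summed joint list was 6399 to 12080, 71.5 to 1372 and 11.9 to 23.2. How far cartilage and joint lining carried along with the bone account for these values was not tested.

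Of 30 interstitial matrix genes, 6 were lower (1 in the fit of 6 libraries), with a median of -1.02 and PJ wholly below Sham in 14. Fn1, fibronectin, had 3519, 2929 and 1099 FPKM in Sham and 317, 148 and 15.5 in PJ (-4.61, SE 1.16, adjusted p = 0.027). Elastin, Eln, was steadier at 54.4, 52.9 and 29.2 FPKM in Sham and 11.8, 9.58 and 10.5 in PJ (-1.95, SE 0.47, adjusted p = 0.022). In the smooth muscle list 3 of 10 genes were also lower (Des, Lmod1 and Cnn1), and Des, which striated muscle shares, was the 1 of 14 skeletal muscle genes called. The medians of the smooth and skeletal muscle lists were -1.98 and -2.46. PJ lay wholly below Sham in 7 of the 10 and 11 of the 14 genes, and wholly above in 1 of each list. Both lists had 6 members lower without Sham 3 and 0 without Sham 1, Sham 2 or PJ 3. The summed skeletal muscle list was 374, 253 and 35.8 FPKM in Sham and 16.6 to 27.9 in PJ, so Sham 1 and Sham 2 held most of it, and its part in the other differences was not tested. Vsig4 and Timd4, receptors of resident tissue macrophages, were lower by -3.94 (SE 0.84) and -1.20 (SE 0.33), while 2 of the 20 genes of the macrophage list, Itgam and Ccr2, were higher. Vsig4 lost its call without Sham 1 (adjusted p = 0.067), Sham 2 or PJ 3, and Timd4 without these (0.15 without Sham 1) or PJ 2.

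These lower calls depended on single libraries. No member of the joint, cartilage and matrix lists remained called without PJ 3, and none without Sham 1. Without P 2 the 3 lists had 7, 8 and 10 members lower. Without both Sham 3 and PJ 3, the joint, cartilage and matrix lists had 0, 1 and 3 members lower, and 4 matrix genes were called higher. Prg4, Hbegf and Fn1 lost their calls without Sham 1, Sham 2 or PJ 3, with adjusted p of 0.13, 0.065 and 0.12 without PJ 3, and Eln did so with 0.10 without Sham 1. Sox9 lost its call without Sham 1 (0.099) or PJ 3, Col9a2 without PJ 3 (0.09), Sham 1 or Sham 2, and Cxcl13 without Sham 1 (0.054). Has1, which is in none of the 3 lists, remained called in each of the 6 fits (at most 0.043). So did Fgf2, a fibroblast growth factor at 6.79, 4.97 and 5.43 FPKM in Sham and 1.14, 0.734 and 0.736 in PJ (-1.84, SE 0.26, adjusted p = 0.0015), and Chrdl2, a BMP antagonist of cartilage at 19.1, 16.5 and 17.2 against 1.39, 2.22 and 0.901 (-2.93, SE 0.55, adjusted p = 0.0081).

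The hypoxia and glycolysis list had 5 of 14 genes lower (2 in the fit of 6 libraries), a median of -0.48 and PJ wholly below Sham in 8. Egln3, an oxygen-sensing prolyl hydroxylase, had 26.7, 13.3 and 14.2 FPKM in Sham and 4.35, 3.61 and 5.58 in PJ (-1.74, SE 0.32, adjusted p = 0.0066), below the 8.01 to 11.3 of OVX. The glucose transporter Slc2a1 had 60.1, 33.0 and 28.6 FPKM in Sham and 10.6, 10.0 and 4.91 in PJ (-2.11, SE 0.42, adjusted p = 0.0098). Car9, Pfkp and Adm were lower by -2.49, -1.12 and -1.06. The count of the list was 1 without Sham 1 and 1 without PJ 3. Egln3 held in each fit that left out 1 library (at most 0.035), and Slc2a1 lost its call without Sham 1 (adjusted p = 0.054) or PJ 3.

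Of 30 Wnt pathway genes, 4 were lower and 1 higher in PJ (none in the fit of 6 libraries), with a median of -0.13. The lower genes were the ligand Wnt11 (-1.12, SE 0.28), the agonist Rspo2 (-1.11, SE 0.33), the receptor Fzd2 (-0.78, SE 0.22) and the inhibitor Kremen1 (-0.68, SE 0.20). The higher gene, Lef1, a nuclear partner of beta-catenin that early lymphoid cells also express, had 0.987, 1.54 and 3.61 FPKM in Sham and 9.75, 5.94 and 9.72 in PJ (1.70, SE 0.42, adjusted p = 0.023). In the BMP and TGF-beta list 1 of 31 genes passed, the activin subunit Inhba (-1.58, SE 0.47, adjusted p = 0.049). Each of these 6 genes lost its call without Sham 1 and without PJ 3 (highest adjusted p per gene 0.11 to 0.19), and all but Rspo2 without Sham 2. Rspo2, Fzd2 and Lef1 were also lost without PJ 1, Kremen1 and Inhba without PJ 2, and Rspo2 without Sham 3. The balance of both lists turned with the libraries: without both Sham 3 and PJ 3, 6 Wnt genes were higher and 1 lower, and 4 BMP and TGF-beta genes were higher and 0 lower. Without Sham 3 alone, 4 Wnt genes were higher and 3 lower.

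**Figure D3:**
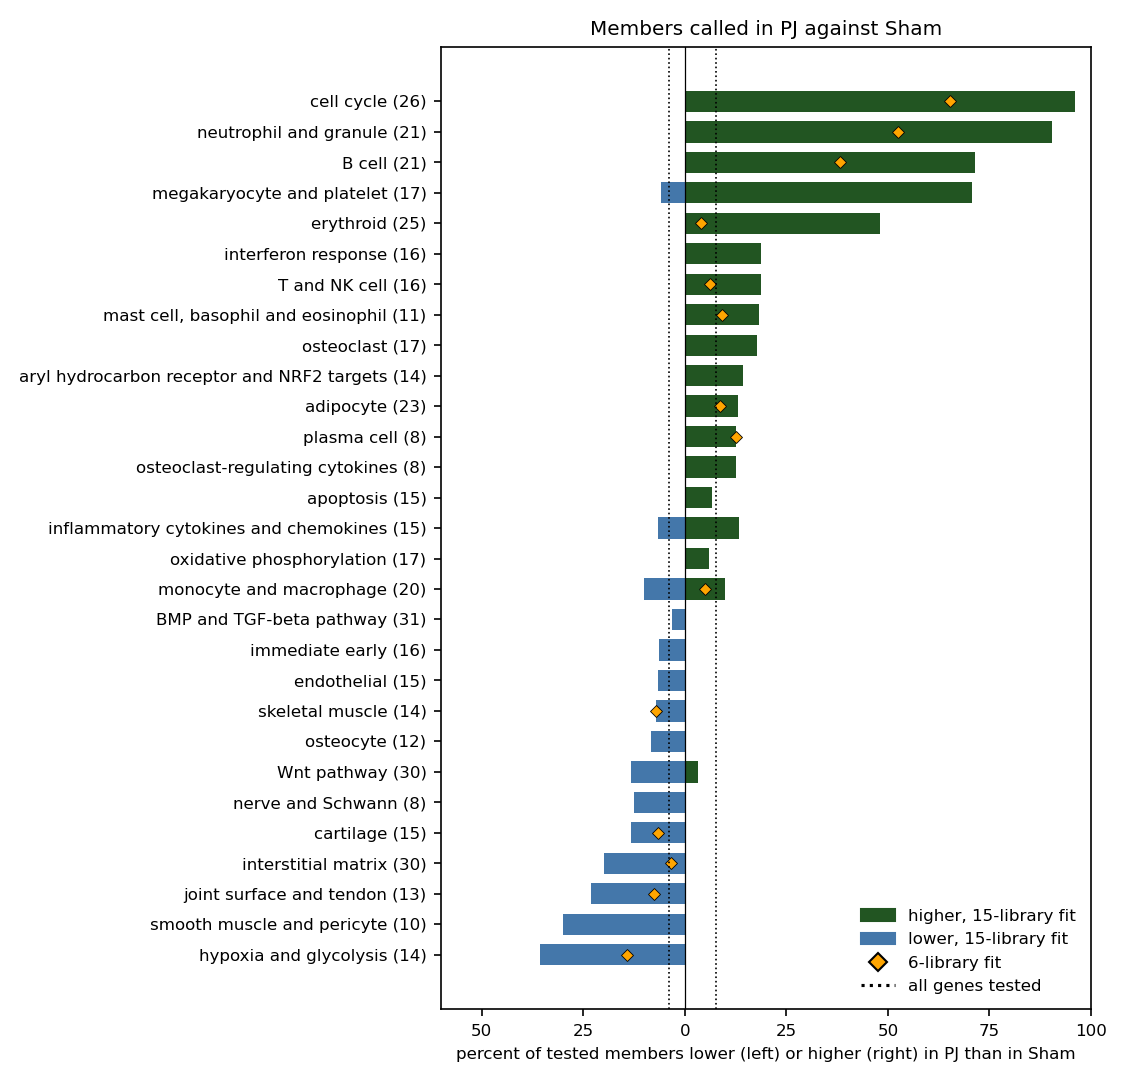
Percent of the tested members of each list called lower (bars to the left) or higher (bars to the right) in PJ than in Sham, with list sizes in brackets, diamonds for the fit of 6 libraries, and dotted lines at the shares over all genes tested, 3.98% lower and 7.68% higher. The cell cycle, neutrophil, B cell, megakaryocyte and erythroid lists had the most members higher, and lists with no called member are not drawn.

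Few bone cell genes were called in PJ against Sham when all libraries were used, and the number turned on Sham 3. None of 19 osteoblast and bone matrix genes was called (0 in the fit of 6 libraries, with PJ wholly above or below Sham in none). The regulator Runx2 had 8.04, 7.60 and 27.9 FPKM in Sham and 34.4, 24.8 and 15.0 in PJ (0.90, SE 0.50, adjusted p = 0.24). Bglap, osteocalcin, had 34.0, 6.43 and 881 FPKM in Sham and 1512, 732 and 123 in PJ (3.08, SE 1.65, adjusted p = 0.22). Col1a1, the main collagen of bone, had 179.7, 118 and 448 against 808, 481 and 126 (0.79, SE 1.00, adjusted p = 0.61). In each gene the 2 groups overlapped.

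Sost, the osteocyte gene for the Wnt inhibitor sclerostin, had 0.280, 0.432 and 313 FPKM in Sham and 233, 135 and 3.36 in PJ (2.64, SE 2.25, adjusted p = 0.44). Sham 3 and PJ 3 had changed places here relative to the rest of their groups. Fbln7, a matrix protein counted in the osteocyte list, was the 1 of 12 genes of that list that passed (-3.76, SE 0.98, adjusted p = 0.03), with 105, 85.9 and 25.1 FPKM in Sham and 14.2, 3.35 and 0.452 in PJ, and it was lost without Sham 1, Sham 2, PJ 2 or PJ 3 (adjusted p = 0.13 without PJ 3).

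Of 17 osteoclast genes, 3 were higher in PJ and none lower (0 in the fit of 6 libraries), with a median of 1.43. PJ lay wholly above Sham in 4 of the 17, no larger a share than the 25.9% over all genes tested. Oscar, a costimulatory receptor of osteoclasts, had 0.150, 0.261 and 1.41 FPKM in Sham and 2.63, 3.60 and 2.03 in PJ (1.28, SE 0.32, adjusted p = 0.027). Tcirg1, a subunit of the proton pump, had 29.2, 29.9 and 45.3 against 58.3, 50.5 and 62.6 (0.72, SE 0.21, adjusted p = 0.042). Car2, a carbonic anhydrase that red cells also hold, had 8.26, 5.79 and 51.2 against 73.7, 57.1 and 138 (2.51, SE 0.60, adjusted p = 0.022), with OVX at 747 to 985. The protease Ctsk, cathepsin K, had 65.8, 60.3 and 1494 FPKM in Sham and 1789, 1929 and 727 in PJ (2.89, SE 1.06, adjusted p = 0.089), and the phosphatase Acp5 had 14.5, 12.4 and 449 against 546, 504 and 259.9 (3.20, SE 1.03, adjusted p = 0.061). Without Sham 3, 15 of the 17 osteoclast genes were called higher, and 15 without both Sham 3 and PJ 3. Ctsk and Acp5 then had adjusted p of 0.0062 and 0.00072 in the fit without both. The osteoblast list had 8 members higher without Sham 3 and 11 without both. Without Sham 1, Sham 2 or PJ 3, no osteoclast gene was called.

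In the RANKL system no gene passed with all libraries, and the ligand and receptor genes passed without Sham 3. Tnfsf11 had 2.46, 1.61 and 9.84 FPKM in Sham and 21.4, 12.2 and 4.72 in PJ (1.37, SE 0.62, adjusted p = 0.15). Tnfrsf11a had 2.31, 3.61 and 10.3 against 9.82, 9.39 and 6.08 (0.74, SE 0.43, adjusted p = 0.25). Without Sham 3 both had an adjusted p of 0.041, and without both Sham 3 and PJ 3 Tnfsf11 had 0.021 and Tnfrsf11a 0.047. The decoy receptor gene Tnfrsf11b had 204, 59.3 and 77.3 FPKM in Sham and 36.7, 45.1 and 0.803 in PJ, with no overlap, and OVX at 0.351 to 0.958 (-2.76, SE 1.09, adjusted p = 0.11). The cytokine gene Il1b, which also promotes osteoclasts, was called higher, at 2.01, 3.66 and 8.01 FPKM against 12.9, 10.2 and 29.2 (1.74, SE 0.42, adjusted p = 0.022), and lost its call without Sham 1 (0.11), Sham 2 or PJ 3. The estrogen receptor gene Esr1 had 0.257, 0.399 and 2.00 FPKM in Sham and 2.08, 0.958 and 0.560 in PJ (0.28, SE 0.35, adjusted p = 0.61). None of 11 estrogen receptor and responsive genes passed.

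**Figure D4:**
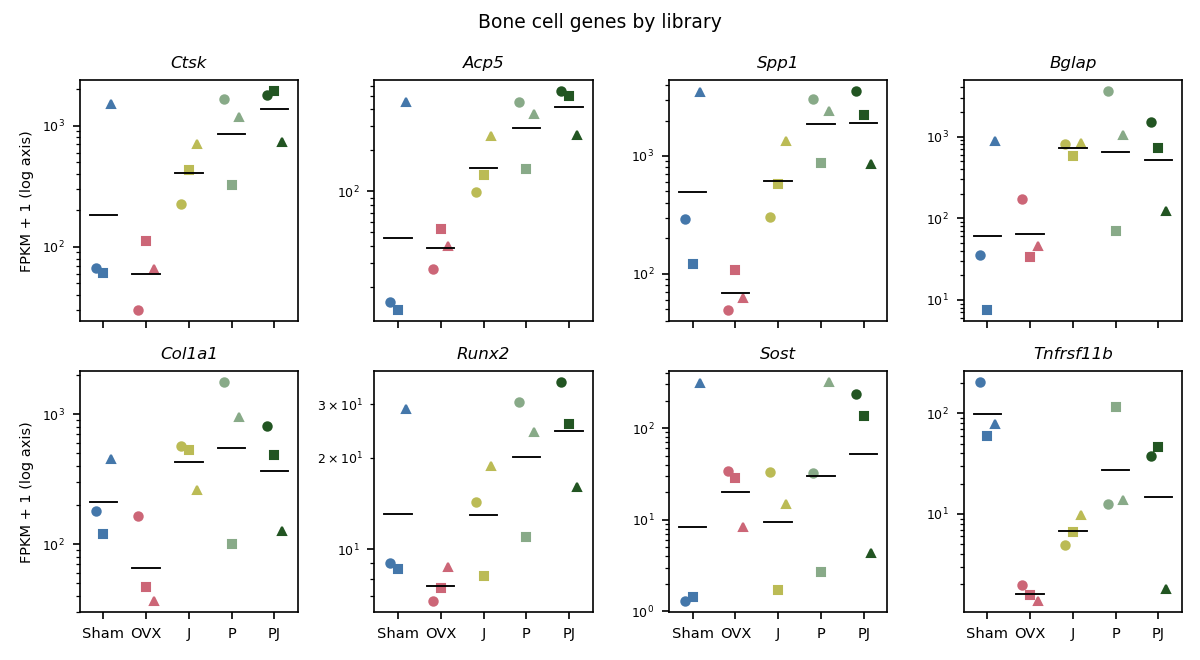
FPKM + 1 on log axes for 8 bone genes in each of the 15 libraries, with bars at the mean of the log values. Sham 3 (triangle) lay far above Sham 1 and Sham 2 in Ctsk, Acp5, Spp1, Bglap and Sost, and PJ 3 lay below PJ 1 and PJ 2 in each of these.

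Fat genes as a list stood higher in PJ than in either saline group, though few passed the test. PJ lay wholly above Sham in 21 of 23 adipocyte genes, the list median was 1.71, and 3 were called (2 in the fit of 6 libraries). The summed list was 1006, 2932 and 3883 FPKM in Sham, 5856, 9745 and 8375 in PJ, and 469 to 3129 in OVX. Lep (ENSRNOG00000045797), the hormone leptin made by fat cells, had 0.962, 2.80 and 2.36 FPKM in Sham, 13.1, 22.0 and 19.4 in PJ and 0.433 to 4.84 in OVX (2.68, SE 0.77, adjusted p = 0.042). PJ was thus above each library of both saline groups. This was not particular to PJ: Lep had 18.1, 0.836 and 17.9 FPKM in P 1 to 3 and 9.67, 4.12 and 6.02 in J 1 to 3. The summed list was 8270, 1366 and 6489 FPKM in P and 3437, 4850 and 2329 in J. Dgat2, which makes triglyceride, had 5.76, 15.0 and 23.4 FPKM in Sham and 66.4, 60.6 and 50.4 in PJ (2.11, SE 0.57, adjusted p = 0.034), and Acsl1, which activates fatty acids, differed by 2.12 (SE 0.58, adjusted p = 0.037). Adipoq, adiponectin, had 92.4, 393 and 853 FPKM in Sham and 1104, 1619.8 and 1492 in PJ, and did not pass (2.14, SE 1.07, adjusted p = 0.19). Sham 1 was the lowest Sham library in each of these genes. The calls were fragile: Lep was lost in each of the 6 fits without 1 library (0.16 without Sham 1), Dgat2 and Acsl1 remained in 1 of the 6 (0.15 and 0.16 without Sham 1), while 6 members were called without Sham 3 and 11 without P 2.

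The stricter description of lying beyond Sham, with PJ called on one side of Sham and OVX on the other, was met by 7 genes. Of these, 6 were higher in PJ: Pmepa1, Acat2l1, Trim7, Esyt3, Tmem150c and the unnamed ENSRNOG00000068207. Pmepa1, a feedback inhibitor of TGF-beta signalling, had 22.1, 27.9 and 34.3 FPKM in Sham, 60.4, 68.2 and 62.5 in PJ and 4.95 to 9.75 in OVX (1.17, SE 0.35, adjusted p = 0.049). Acat2l1, annotated as like an acetyl-CoA acetyltransferase, had 1.38, 1.87 and 1.61 against 3.64, 4.08 and 3.99, with OVX at 0.330 to 0.50 (0.91, SE 0.22, adjusted p = 0.022). Trim7, a ubiquitin ligase that binds glycogenin, had 1.34, 1.93 and 1.67 against 4.22, 3.69 and 3.64, with OVX at 0.256 to 0.960 (0.88, SE 0.19, adjusted p = 0.016). In these 3 genes the Sham, PJ and OVX libraries formed separate ranges. Esyt3, Tmem150c and ENSRNOG00000068207 differed by 0.90 (SE 0.27), 0.81 (SE 0.22) and 1.80 (SE 0.46).

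The 1 gene below Sham was Thbs1 (ENSRNOG00000045829), thrombospondin 1, a matrix protein that platelets store and that activates TGF-beta. It had 90.9, 54.3 and 58.7 FPKM in Sham, 30.3, 29.1 and 39.7 in PJ and 162 to 259 in OVX (-0.99, SE 0.30, adjusted p = 0.047). It was the 1 platelet gene called lower in PJ. Trim7 lost its call without Sham 1 (adjusted p = 0.080) or PJ 3, Acat2l1 without Sham 1 (0.10), Sham 2 or PJ 3, and Pmepa1, Esyt3 and Thbs1 in each fit but the 1 without Sham 3 (0.18, 0.17 and 0.19 without Sham 1). Tmem150c lost its call without PJ 3 (0.13), PJ 1, Sham 1 or Sham 2, and ENSRNOG00000068207 without PJ 3 (0.11), PJ 2, Sham 1 or Sham 2.

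Among the 135 called genes in which OVX was not called, 109 were higher in PJ and 26 lower. The mean of OVX lay on the other side of Sham in 31 and 10 of them. Npr3, the clearance receptor of natriuretic peptides, had 2.17, 2.65 and 2.97 FPKM in Sham, 10.5, 21.2 and 12.3 in PJ and 0.0375 to 3.40 in OVX (2.07, SE 0.48, adjusted p = 0.021). Slc6a2, the noradrenaline transporter, had 0.951, 2.75 and 3.25 against 9.03, 12.7 and 8.84 (1.81, SE 0.47, adjusted p = 0.03). Plin5, a lipid droplet protein, had 0.220, 0.640 and 0.255 against 1.63, 3.24 and 2.96 (1.38, SE 0.38, adjusted p = 0.037). Krt79, a keratin, had 9.98, 37.5 and 38.8 against 109, 129 and 190.0 (2.45, SE 0.68, adjusted p = 0.038). Cd244, a receptor of NK cells, was the steadiest of those named, at 0.871, 1.00 and 0.775 against 3.04, 2.64 and 3.62 (1.12, SE 0.19, adjusted p = 0.0057). OVX lay within or below the Sham range in each, except that 1 OVX library exceeded Sham in Npr3 and 2 did in Cd244.

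Of 16 interferon response genes 3 passed, all higher. Cxcl10, an interferon-induced chemokine, had 1.30, 1.75 and 2.60 FPKM in Sham and 4.42, 4.35 and 9.41 in PJ (1.24, SE 0.33, adjusted p = 0.033), and Irf1, an interferon-induced factor, had 15.4, 22.3 and 23.8 against 31.2, 32.7 and 45.8 (0.81, SE 0.22, adjusted p = 0.035). Oasl was the other. On the lower side, Ass1, the urea cycle enzyme that makes argininosuccinate, had 15.6, 12.4 and 14.0 FPKM in Sham, 9.54, 5.10 and 5.33 in PJ and 17.9 to 26.3 in OVX (-1.01, SE 0.25, adjusted p = 0.024). Adcy1, an adenylate cyclase, had 5.77, 3.45 and 1.30 against 0.756, 0.560 and 0.835 (-1.26, SE 0.30, adjusted p = 0.021). Cd244 remained called in each of the 6 fits without 1 library. Npr3, Cxcl10, Irf1 and Adcy1 lost their calls without Sham 1 (0.088, 0.14, 0.16 and 0.087), Sham 2 or PJ 3. Krt79, Plin5 and Slc6a2 remained in 1 of the 6 (0.17, 0.13 and 0.14 without Sham 1), and Ass1 in 2 (0.11 without PJ 3).

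**Figure D5:**
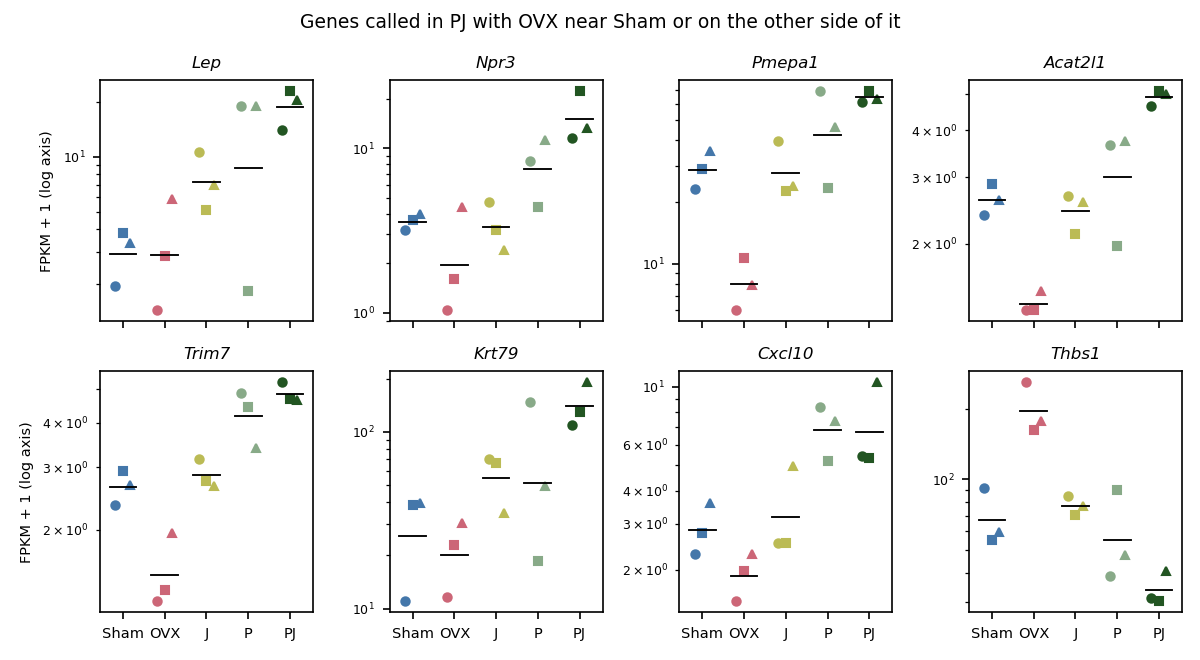
FPKM + 1 on log axes for 8 genes called in PJ against Sham with OVX near Sham or on the other side of it, in each of the 15 libraries, with bars at the mean of the log values. The PJ libraries lay above those of Sham and OVX in Lep, Npr3, Pmepa1, Acat2l1, Trim7, Krt79 and Cxcl10, and below them in Thbs1.

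Beside the osteoblast, MHC class II and estrogen lists above, those without a called gene were the marrow stromal niche (0 of 14), cholesterol and fatty acid synthesis (0 of 21, but 1 in the fit of 6 libraries and 5 without P 2), autophagy and lysosome (0 of 14), cytoplasmic ribosomal proteins (0 of 18) and insulin-like growth factors with their binding proteins (0 of 12). In the list of aryl hydrocarbon receptor and NRF2 targets, through which plant compounds can act, 2 of 14 passed (Gclm, 0.58, and Osgin1, 0.82), and none under median-ratio scaling or in the fit of 6 libraries. Gclm remained called in 1 of the 6 fits without 1 library and Osgin1 in 2. Its main reporter Cyp1a1 had 16.7, 1.82 and 1.77 FPKM in Sham and 0.0727, 0 and 4.97 in PJ and did not pass (adjusted p = 0.26). Of 15 endothelial, 8 nerve and 16 immediate early genes, 1 each was lower (Eng, Prx and Klf4). Of 17 oxidative phosphorylation and 15 apoptosis genes, 1 each was higher (Ndufa4 and Bid). These 5 calls were lost without Sham 1, Sham 2 or PJ 3. Over all genes tested, 3.98% were called lower and 7.68% higher, so such counts do not set these lists apart. Of 15 inflammatory cytokine genes, Il1b and Il1rn were higher and Cxcl13 lower.

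PJ was also set beside the groups given a single extract. In PJ against J, 1209 genes were called higher (8.33%) and 743 lower (5.12%). Mki67 had 70.5 to 75 FPKM in J against 15.0 to 28.2 in PJ (-1.69, SE 0.25, adjusted p = 0.0049), and Slc4a1 309 to 459 against 14.6 to 102 (-3.29, SE 0.57, adjusted p = 0.0065). PJ was thus nearer to Sham than J was in these 2 genes. Pmepa1 and Npr3 were higher in PJ than in J by 1.22 (SE 0.35, adjusted p = 0.039) and 2.18 (SE 0.48, adjusted p = 0.016). In PJ against P, limma called 0 genes, with 283 at an unadjusted p under 0.05 and a smallest adjusted p of 0.999, which does not show that the groups were alike. Leaving out each P or PJ library in turn also gave 0 calls, with a smallest adjusted p of 0.9999 without P 2 and 0.16 without PJ 3. Mki67, for example, had 27.6 to 36.1 FPKM in P. The dose of the combined extract differed from that of either extract given alone.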

How the data were processed

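Polyadenylated RNA of rat femur was sequenced from TRIzol extracts with a TruSeq kit, per the labels' protocols. The submitters' processing notes name fastp 0.23.4, STAR 2.7.11a, featureCounts 2.0.6 and genome build mRatBN7.2. For strandedness the sources used here give nothing, so a gene and an overlapping or antisense partner cannot be told apart. The deposited files give FPKM for 30454 genes, of which 4319 have no name. The FPKM stand in a column named count, since values are not whole, and a column named FPKM was empty in all 15 files. Within a gene the deposited FPKM rise in equal steps of 1 read (within 0.05 of a whole number), which gave the reads per gene and library for 24206 of 24207 genes above 0. Even counts made up 60.0% of the counts from 1 to 20, so the totals may be read ends.

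Genes whose mean FPKM over the 6 libraries reached 1 were analysed as log2(FPKM + 1), a scale that understates the change of low genes. The main test was limma 3.58.1 (R 4.3.3) with 1 mean per group over 15 libraries (10 residual degrees of freedom), variances that follow mean expression, two-sided tests and Benjamini-Hochberg adjustment at 0.05. An exact permutation test of 3 against 3 cannot go below p = 0.1. The procedure was tested on simulated data with independent noise in each gene. No simulated library stood apart as Sham 3, PJ 3 and P 2 did, so that test does not bear on calls that turn on them. The 37 gene lists held 657 distinct genes, of which 639 were found by name and 598 were tested. The comparison and the lists were chosen with earlier results of these data known, and no list was tested as a set. The genes named were the 15 highest and 15 lowest among those called in both fits and not overlapping, the 5 of smallest p per direction of each class by OVX, up to 4 of smallest p per list, and 25 fixed by name. Other called list members and genes with OVX on the other side of Sham were chosen after their values were seen. GATA, RUNX and dioxin response motifs were searched as well as those shown, and the motifs printed in the report were added after results were seen. A match on either strand was counted. The GATA motif AGATAA occurred in 6 of 19 erythroid promoters (11.3% of all), but in 0 of the 7 promoters of called erythroid genes. The RUNX motif TGTGGT occurred in 3 of 13 osteoblast promoters (16.9%). The dioxin response core GCGTG occurred in 7 of 12 promoters of the aryl hydrocarbon receptor and NRF2 list (31.1%), and in 1 of the 2 of its called genes. Alternatives were other filters, pseudocounts, scalings and weights, the 6 libraries alone, a replicate block and leaving out each Sham and PJ library. Leaving out P 2 was added after the data were seen.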

Additional observations from a re-analysis of the deposited data

How the results depend on the processing

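The count of 1693 called genes was 1392 without a filter, 1474 with a pseudocount of 0.1, 1319 as TPM, 1724 under median-ratio scaling, 1627 without mitochondrial and globin genes and 1506 with voom on recovered reads, an alternative chosen after seeing the data. It was 999 at a mean FPKM of at least 5 (696 higher, 303 lower, with 10255 genes tested), 500 in the 6 libraries alone (378 and 122) and 6778 with array weights (4983 and 1795), which gave PJ 1 the highest weight of the 15 libraries (4.86) and PJ 3 one of 0.213. The cause of these shifts was not tested. The lower genes numbered 356 with the pseudocount of 0.1, 921 under median-ratio scaling and 322 without both Sham 3 and PJ 3, also chosen after seeing the data. The higher share of calls was 65.9%, 46.6% under median-ratio scaling and 75.8% with the pseudocount of 0.1. Leaving out 1 library gave 362 to 2769 calls, 304 to 1861 higher and 55 to 908 lower. The fewest calls came without Sham 1 and the most without P 2, a fit chosen after seeing the data. Leaving out 1 Sham or PJ library gave at most 2357, without Sham 3. In PJ against P, 0 genes were called in each of the 6 fits without 1 library. Same-numbered Sham and PJ libraries had deviations correlated at 0.058, 0.047 and -0.062, within the -0.147 to 0.062 of differently numbered ones. With 3 libraries per group, these values cannot show whether the numbers pair them. The replicate block gave 1909 calls (1296 higher, 613 lower), and 765 (521 and 244) within the 6 libraries. Genes called in PJ and OVX with the same sign numbered 934 at a mean FPKM of 5 and 4628 with array weights. The 7 genes with opposite signs became 3 without a filter, 1 at a mean FPKM of 5, 2 with the pseudocount of 0.1, 3 as TPM, 536 with array weights and 41 without P 2. Those with OVX not called became 64 at a mean FPKM of 5, 76 as TPM, 1614 with array weights and 450 without P 2. Of 207 named genes that were called, 61 remained so without Sham 1, 65 without PJ 3 and 85 in the 6 libraries, and none turned its sign. Alpl, not called at -0.11, was called at 1.03 with array weights. The classes by OVX were not run for the fits that leave out a Sham or PJ library and could not be made from the 6 libraries.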
